A study of Mus musculus with 2 samples.

Results

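The genes described here encode the proteins of the cytosolic ribosome, and they were compared between regulatory T cells without Hopx and regulatory T cells with it. Members were taken by symbol from the platform annotation: every probe set with a single gene symbol that reads Rpl or Rps followed by a digit, or Rplp0, Rplp1, Rplp2 or Rpsa, without the S6 kinase genes, Rps19bp1 and pseudogenes. This gave 105 probe sets of 49 genes, 26 of the large and 23 of the small subunit, out of 18193 genes measured by 34945 probe sets with a single symbol. The symbols bring in 6 paralogues of ribosomal proteins, so that 43 members are standard components of the ribosome and 6 (Rpl3l, Rpl7l1, Rpl22l1, Rpl39l, Rps4l and Rps27l) are related genes.

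The tested cells were Hopx-/- mouse T cells, and the cells they were set against were Hopx-sufficient mouse T cells. Both are regulatory T cells (iTregs) that dendritic cells induced in vivo in immunized animals, and both were sorted to high purity on CD25 and Foxp3. For each genotype, biotin-labelled target made from total RNA went onto 1 Affymetrix array. How the Hopx allele was made, the strain, the age, the immunogen, the number of mice and the purity of each sort are not given in the sources used here. Since 1 array stands for each genotype, there is no replicate check on any difference and no p-value, and every value describes these 2 arrays alone.

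A ribosome consists of a large subunit, which joins amino acids, and a small subunit, which reads the mRNA. Each holds ribosomal RNA and many small basic proteins, most of them present in a single copy per ribosome. Messenger RNAs of vertebrate ribosomal proteins begin with a tract of pyrimidines, the 5′ TOP, through which the kinase mTORC1 and the RNA-binding protein LARP1 set their translation and stability. Lymphocytes make many new ribosomes when an antigen drives them to grow and divide, and the assembly factors that build ribosomes in the nucleolus are known targets of Myc.

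The deposited values were log-type, and within every probe set the average of both arrays had been subtracted. The 2 columns are therefore mirror images, so that a value of -0.21 in the Hopx-/- column stands beside 0.21 in the Hopx-sufficient column. They keep the difference between the arrays but no signal level. All differences below are on the log2 scale, Hopx-/- minus Hopx-sufficient, and a negative one means lower in Hopx-/- cells. The value of a gene is the mean over its probe sets. A difference of 0.32 was used as a rule of size, not as a test.

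Hopx, which encodes a small homeodomain cofactor that binds no DNA, was 35.4-fold lower in Hopx-/- cells, with its 2 probe sets at -4.86 and -5.43. This checks the labels. Ribosomal protein genes as a family lay next to 0. Their median difference was -0.0064 over 49 genes, against 0.0082 over all 18193 genes, and 22 members were higher and 27 lower in Hopx-/- cells. The large subunit had a median of -0.0049 (12 higher, 14 lower) and the small subunit a median of -0.011 (10 higher, 13 lower), which leaves 0.0062 between the medians of the 2 subunits. Without the paralogues the medians were -0.0049 over 22 large subunit genes and -0.00084 over 21 small subunit genes.

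The members were also close to each other. The standard deviation over the 49 gene values was 0.13, against 0.21 over all genes, and 37 members (75.5%) lay within 0.1 of 0, against 43.0% of all genes. This closeness was not shared by every class of probe set, as given below. Lower by at least 0.32 in Hopx-/- cells were 3 members, where 6.61% of all genes were. No member was higher by that size, where 4.36% of all genes were, and either way it was 11% of all genes. No member reached 1.5-fold in either direction, which 1.57% of all genes did, or 2-fold, which 0.148% did. The base of the logs was assumed: if they were natural logs, Rpl14 (-0.62) and Rps25 (-0.59) would be past 1.5-fold, as would 5.78% of all genes. Rpl12 (-0.37) was the member just past 0.32 and Rps27l (-0.30) the one just short of it.

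**Figure D1:**
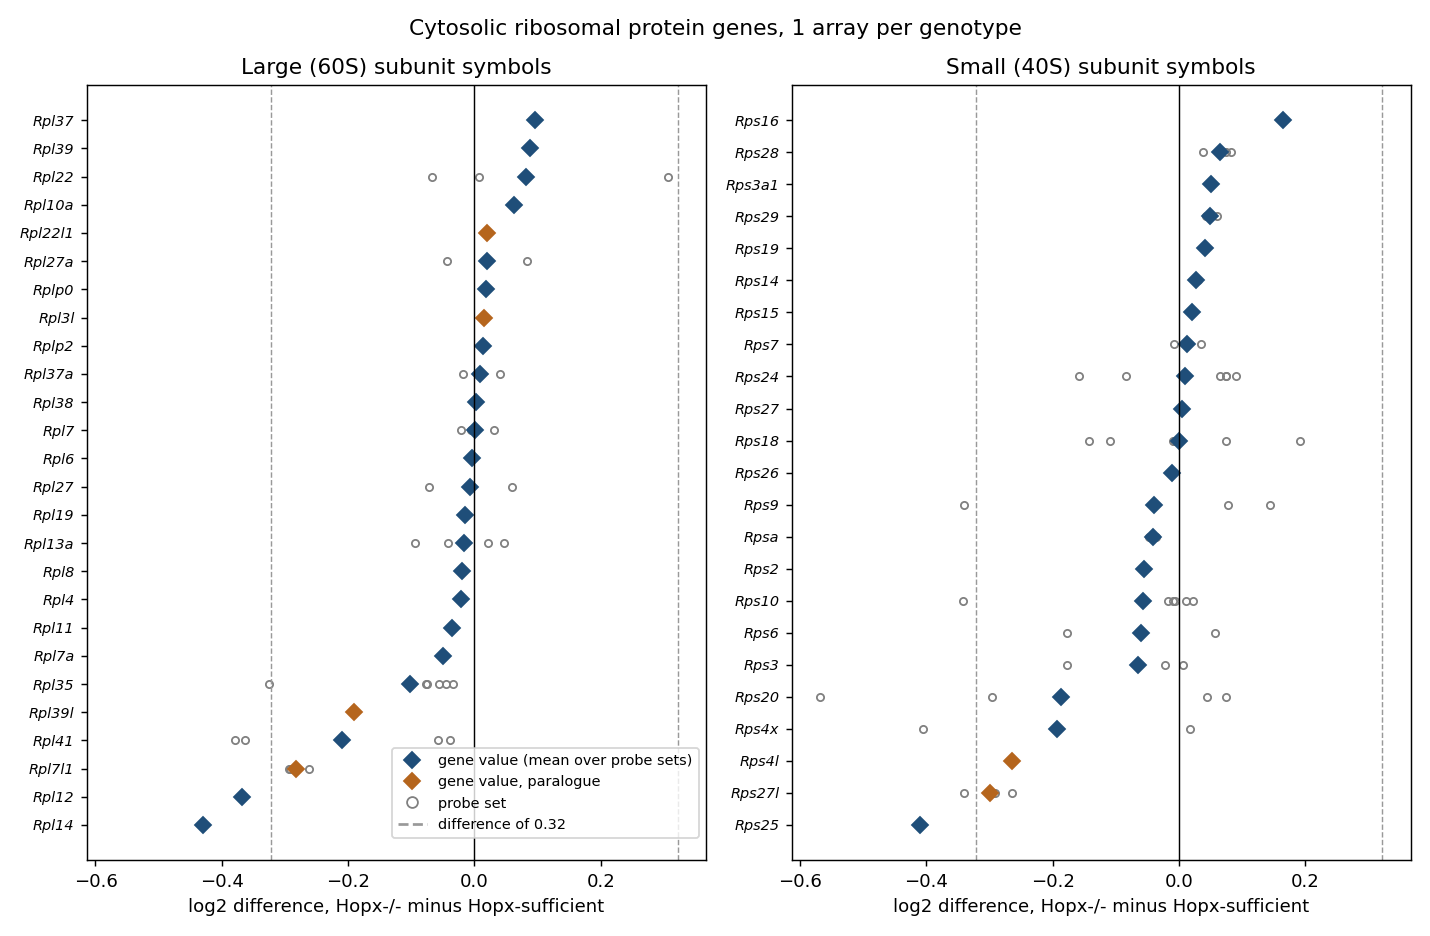
Log2 difference (Hopx-/- minus Hopx-sufficient, horizontal axis) of each ribosomal protein gene, large subunit on the left and small subunit on the right, with diamonds for gene values, open circles for the probe sets behind them and dashed lines at a difference of 0.32. Most diamonds lie within 0.1 of 0, the 3 past the dashed line are Rpl14, Rpl12 and Rps25, and Rps20, Rps9 and Rps4x have the widest scatter of probe sets.

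In the large subunit the lowest member was Rpl14, whose product sits on the outer face of the subunit. Its 1 probe set stood at -0.21 in the Hopx-/- column and 0.21 in the Hopx-sufficient column, a difference of -0.43 or 1.35-fold lower. Rpl12, which encodes a protein at the base of the stalk that recruits elongation factors, was 1.29-fold lower, with column values of -0.18 and 0.18 in the same order. Both values rest on a single probe set, and other probe sets do not share them. The annotation lists 5 further probe sets under Rpl14 jointly with a pseudogene, and these lay between -0.093 and -0.018. The 2 probe sets listed under Rpl12 jointly with other symbols lay at 0.038 and 0.047. A probe set with several symbols cannot be assigned to one of its genes, so these values stand beside the members and do not enter them.

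Rpl41, the gene of the smallest ribosomal protein, differed by -0.21, with 2 of its 4 probe sets at -0.38 and -0.36 and the other 2 at -0.058 and -0.038. Rpl35, whose product lines the exit of the nascent peptide tunnel, differed by -0.10. Of its 6 probe sets 1 lay at -0.33, and the highest lay at -0.034. For both genes some probe sets stood near 0 while others were lower in Hopx-/- cells.

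At the other end of the large subunit no gene was far from 0. Rpl37, which encodes a small zinc-binding protein of the subunit, differed by 0.096 (column values of 0.048 in Hopx-/- and -0.048 in Hopx-sufficient cells). That value rests on 1 probe set. The 3 probe sets listed under Rpl37 jointly with another symbol lay between -0.038 and 0.044, 2 of them higher in Hopx-/- cells. Rpl39, whose product forms part of the tunnel wall, differed by 0.088. Rpl22 is needed in mice for the development of alphabeta T cells, and it differed by 0.082, with probe sets at 0.31, 0.0078 and -0.067. Rpl10a, which encodes the protein of the mobile L1 stalk, differed by 0.063, and Rpl27a by 0.020. Both measured genes of the P stalk, which activates the GTPase of elongation factors, were at 0.019 (Rplp0) and 0.014 (Rplp2). Rpl11, part of the 5S ribonucleoprotein that also binds the p53 regulator Mdm2, was at -0.036. Of the other large subunit members, Rpl37a, Rpl38, Rpl7, Rpl6, Rpl27, Rpl19, Rpl13a, Rpl8, Rpl4 and Rpl7a lay between -0.049 (Rpl7a) and 0.0090 (Rpl37a). Beside Rpl13a (-0.017), 2 probe sets with several symbols were at 0.030 and 0.35. Rplp1 and Rpl5, the remaining genes of the P stalk and of the 5S particle, were found in probe sets with several symbols and have no value of their own here.

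In the small subunit the lowest member was Rps25, which encodes a protein of the subunit's head that several viral internal ribosome entry sites need. Its 1 probe set stood at -0.20 in the Hopx-/- column and 0.20 in the Hopx-sufficient column, so that Rps25 was 1.33-fold lower. The 1 probe set listed under Rps25 jointly with other symbols was at -0.0034. Rps4x, an X-linked gene whose product lies at the foot of the subunit, differed by -0.19, from probe sets at -0.41 and 0.018. Rps20, another head protein gene, differed by -0.19 and had the widest scatter of all members, with probe sets at -0.57, -0.30, 0.044 and 0.074. Each of the last 2 genes thus had probe sets on both sides of 0, so neither direction was shared by all probe sets of the gene.

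Rps9, which encodes a protein of the small subunit body, and Rps10, a head protein gene, show the same kind of scatter. Rps9 differed by -0.040 from probe sets at -0.34, 0.077 and 0.14. Rps10 differed by -0.057, with 1 of its 6 probe sets at -0.34 and the others between -0.018 and 0.022. Rps3, whose product guards the entry of the mRNA channel, differed by -0.064, with 2 of its 3 probe sets at -0.022 and 0.0062. Rps6, the protein that S6 kinases phosphorylate downstream of mTORC1, differed by -0.060, with probe sets at -0.18 and 0.058. The 9 probe sets listed under Rps6 jointly with a pseudogene lay between -0.0065 and 0.29 with a median of 0.079, 8 of them higher in Hopx-/- cells, on the other side of 0 from the value of Rps6. In Rps10 and Rps3 a single low probe set carried most of the difference.

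The highest small subunit member was Rps16, a head protein whose tail reaches the tRNA. Its 1 probe set stood at 0.082 in the Hopx-/- column and -0.082 in the Hopx-sufficient column, a difference of 0.16, while the 2 probe sets listed under Rps16 jointly with other symbols were at 0.022 and 0.032. Rps28 (0.065), a protein gene of the mRNA exit side, had 3 probe sets between 0.038 and 0.082. Rps29 (0.049), a zinc-binding head protein gene, had 3 probe sets between 0.043 and 0.059. Rps3a1 (0.051), Rps19 (0.042), the gene most often mutated in human Diamond-Blackfan anaemia, and Rps14 (0.027), a platform protein gene, completed the upper end. The remaining small subunit members, Rps15, Rps7, Rps24, Rps27, Rps18, Rps26, Rpsa and Rps2, lay between -0.056 (Rps2) and 0.021 (Rps15).

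Grouped by their place in the ribosome, the members had medians next to 0. The 10 measured proteins of the small subunit head had a median of 0.010, the 5 of the platform and mRNA exit a median of 0.0039, and the 5 of the peptide exit tunnel and its rim a median of -0.015. Of 11 measured genes whose human counterparts are mutated in Diamond-Blackfan anaemia, 6 were higher and 5 lower, with a median of 0.0039, and Rpl35 was the lowest. Of the ribosomal proteins made as fusions with ubiquitin or a ubiquitin-like protein, Fau, which is not a member by symbol, was measured at 0.092. Members lay on 17 chromosomes, with at most 7 on any of them.

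Most paralogues had lower values in Hopx-/- cells than the standard components. Rps27l, a paralogue of Rps27 that p53 induces, was 1.23-fold lower in Hopx-/- cells, and its 3 probe sets stood together at -0.34, -0.29 and -0.26. Rps27 itself was at 0.0039. Rpl7l1, whose product is found in nucleolar precursors of the large subunit, was 1.22-fold lower, again with its 3 probe sets together between -0.29 and -0.26, while Rpl7 was at 0.0015. For these 2 pairs the probe sets of the paralogue and of the parent gene did not overlap, but Rps27 has 1 probe set. The probe sets of Rpl7l1 and of Rpl7 have different suffixes (_at, against _a_at and _x_at), which are explained below.

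The other paralogues rest on 1 probe set each. Rps4l, an autosomal relative of Rps4x, was at -0.26, and Rpl39l, known from male germ cells in mice, was at -0.19, against 0.088 for Rpl39. Rpl22l1, which can take the place of Rpl22, was at 0.020. Rpl3l, a muscle paralogue of Rpl3, was at 0.016. In 5 of 5 pairs the paralogue had the lower gene value, but for Rps4l and Rpl22l1 the value of the paralogue lay between those of the parent's probe sets. Paralogues share sequence with their parent genes, and whether the probes keep them apart was not tested. With 6 genes the median of the paralogues was -0.23.

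**Figure D2:**
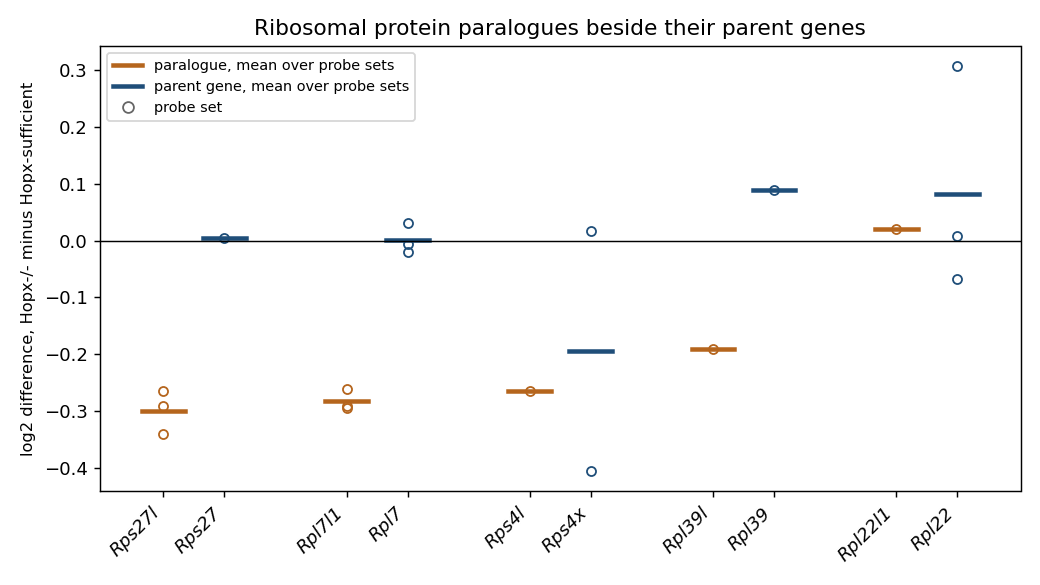
Log2 difference (Hopx-/- minus Hopx-sufficient, vertical axis) of 5 ribosomal protein paralogues, each left of its parent gene, with open circles for probe sets and bars for their mean. The probe sets of Rps27l and Rpl7l1 lie between -0.34 and -0.26, below those of Rps27 and Rpl7, whereas Rpl22l1 lies among the probe sets of Rpl22.

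Probe sets of different classes had different medians, although low values were found in more than one class. On these arrays a plain suffix _at marks probe sets designed against a single transcript, _a_at those that match several transcripts of a gene, and _s_at and _x_at those that can match other genes. The 34 member probe sets with a plain suffix had a median of -0.13, and 25 of them were lower in Hopx-/- cells. Among these 34 are the probe sets of the paralogues Rpl7l1, Rps4l, Rpl39l and Rpl3l. The 28 with the suffix _a_at had a median of -0.0045 and the 40 with _x_at a median of 0.015. Over all genes the probe sets with a plain suffix had a median of 0.014, and 12505 of 26992 were lower. Within 0.1 of 0 lay 44.1% of the member probe sets with a plain suffix, against 37.2% of all such probe sets. With _a_at it was 92.9% of the member probe sets against 36.6% of all, and with _x_at 85% against 39.3%. Of the 18 member probe sets at or below -0.25, 12 had the plain suffix and 7 belonged to paralogues. The share of all probe sets at or below -0.25 was not counted. Lower by at least 0.32 were 11 of the 105 member probe sets, against 2823 of all 34945 with 1 symbol. None of the 105 was higher by that size, against 2233 of the 34945. The lowest member probe set, in Rps20 (-0.57), had the suffix _a_at, and the low probe set of Rps4x (-0.41) had _x_at. In Rpl41 probe sets with _x_at lay at -0.38, -0.058 and -0.038. The part of probe design in these values was not tested.

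A coarse bound on signal comes from the single-precision steps of the deposited values, which are finer where the value before centring lay under 8. Steps could be read for 93 member probe sets, and 7 of them (7.53%) were of the finer kind, against 34.1% of all probe sets with 1 symbol. These 7 belonged to Rps20 (2 probe sets), Rps4x, Rps10, Rps18, Rps24 and Rpl35, and differed by -0.57 to -0.084 with a median of -0.33, while the 86 others had a median of -0.0010. Without them Rps20 was at 0.059 and Rps4x at 0.018, above 0 in both cases, and the median over the 49 members was 0.0015. The single probe sets of Rpl14, Rpl12 and Rps25 were not among the 7. A coarse step does not show that a signal was high, so this bound leaves the level of most probe sets unknown.

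**Figure D3:**
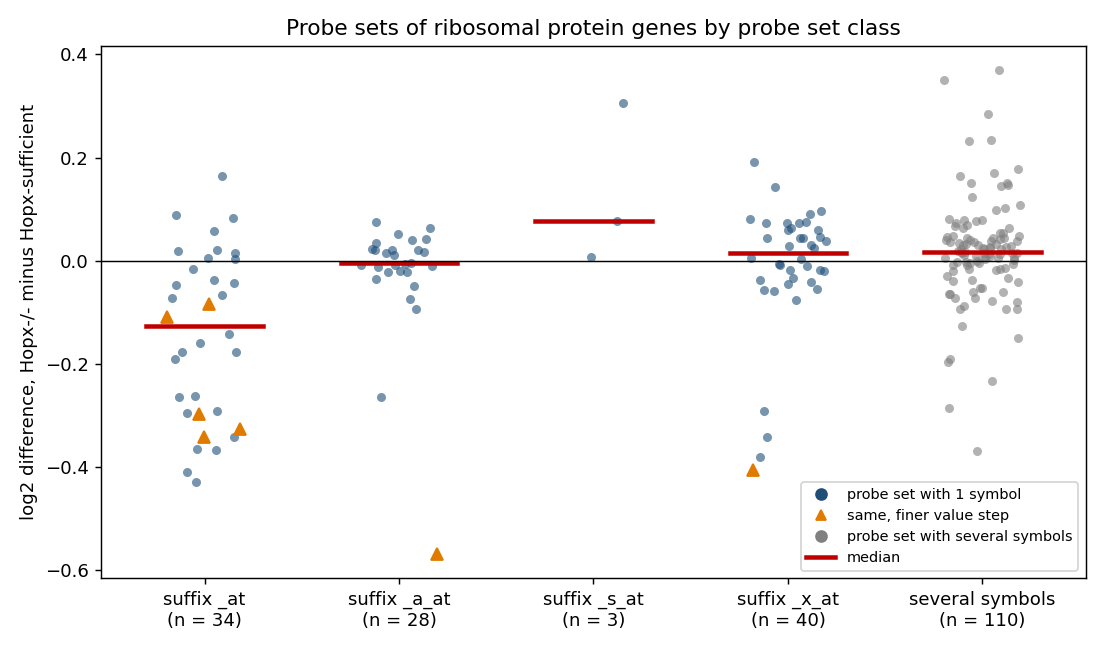
Log2 difference (Hopx-/- minus Hopx-sufficient, vertical axis) of each ribosomal protein probe set, grouped by the suffix of its name, with triangles for the 7 probe sets of finer value step, grey points for probe sets with several symbols and red bars for medians. The plain suffix _at has the lowest median, -0.13, while the other classes have medians from -0.0045 to 0.077.

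Many ribosomal protein genes have processed pseudogenes, and 110 probe sets with several symbols included a symbol that fits the rule for members. They carry 46 such symbols, 31 of which are not among the 49 members, Rpl3, Rpl5, Rps12 and Rps23 for example. These probe sets are set apart here because none can be given to 1 gene. Their median difference was 0.017, and 88 of 110 (80%) lay within 0.1 of 0, against 37.2% of all 34945 probe sets with 1 symbol. Past 0.32 there were 1 on the lower side and 2 on the higher side, against 2823 lower and 2233 higher of those 34945.

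The start sites of the 3 members past 0.32 (Rpl14, Rps25 and Rpl12), of the highest member of each subunit (Rpl37 and Rps16), of Rpl35 and Rps6 and of 2 paralogues are shown because the 5′ TOP is the control element this family shares. Each sequence is the gene's strand from RefSeq (GRCm38.p6), 10 bases before to 20 bases after the annotated start, and capitals mark a run of at least 7 pyrimidines that begins with C. In Rps25 the run of 11 letters begins at position -19 from the start, outside the window, so that its last letters alone are shown.
Rpl14 (chr9:120571507-120571536, + strand): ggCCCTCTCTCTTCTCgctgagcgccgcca
Rpl12 (chr2:32961702-32961731, + strand): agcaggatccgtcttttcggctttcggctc
Rps25 (chr9:44407704-44407733, + strand): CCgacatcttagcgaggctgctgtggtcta
Rpl35 (chr2:39005112-39005141, - strand): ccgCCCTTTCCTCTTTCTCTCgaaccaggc
Rpl37 (chr15:5116603-5116632, + strand): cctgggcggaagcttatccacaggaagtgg
Rps16 (chr7:28350679-28350708, + strand): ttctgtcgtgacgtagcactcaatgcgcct
Rps6 (chr4:86857348-86857377, - strand): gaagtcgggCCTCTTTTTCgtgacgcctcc
Rpl7l1 (chr17:46782637-46782666, - strand): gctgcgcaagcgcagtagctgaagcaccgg
Rpl22l1 (chr3:28805498-28805527, + strand): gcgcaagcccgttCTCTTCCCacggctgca

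Such a run, starting within 20 bases of an annotated start on the gene's strand, was found in 22 of 38 standard members with a RefSeq promoter (57.9%) and in 3 of 5 paralogues, against 23.6% of 27025 genes and 24.6% of 69 mitochondrial ribosomal protein genes. Among the sequences shown, Rpl14 and Rpl12 were both lower in Hopx-/- cells. The first has such a run. The second has tcttttc near its start, whose 7 letters begin with T and not with the C asked for here. A shorter cut was not tried. The word CCGGAAG, bound by ETS family factors, was found on either strand of the promoter (250 bases before to 50 after the start) in 19 of 38 standard members (50%), against 9.93% of all genes. AAGATGGC, a core of YY1 sites, was found in 3 (7.89%, against 3.19%) and TATAAA in 5 (13.2%, against 15.7%). No member promoter held both of the first 2 words, so these could not overlap. The pyrimidine run can share the letters CTTCC with CCGGAAG read on the other strand. Annotated starts can lie some bases from the start used in T cells, and a match describes the letters in the window and no binding.

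Other genes of translation were described from lists made with earlier results of these data known. Messenger RNAs that are not members by symbol but also carry a 5′ TOP had a median of 0.016 over 20 measured genes, with 13 higher and 7 lower. Of these genes Fau (0.092) encodes a ribosomal protein. Eef1a1 and Eef2, the main elongation factors, were at 0.079 and 0.044, and Tpt1, the gene of the translationally controlled tumour protein, was at 0.11. The ends of this list were wider than those of the ribosomal proteins. Pabpc1, the poly(A)-binding protein gene, was at 0.43, but from probe sets at 0.87 and -0.0050. Eif2s3x, a subunit of the initiation factor that brings the first tRNA, was at -0.40, with probe sets between -0.76 and -0.22.

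The list of initiation and elongation factors had a median of -0.12 over 39 genes, 26 lower and 13 higher. It also holds genes that are not such factors: the regulators Eif4ebp1 (-0.40), Eif4ebp2 (-0.046) and Eef2k (0.011), and Eef1e1. The 3 probe sets of Eif4ebp1 ran from -0.83 to 0.32, on both sides of 0. The 11 genes of this list that also stand in the TOP list had a median of 0.020. The 28 others had a median of -0.24, with 24 lower, 8 of them by at least 0.32, as were 6.61% of all genes. This split was made after the values were seen. Of those 28, Eef1e1, a partner of the multi-synthetase complex, was the lowest at -0.69, and Eif4a2, a helicase that helps mRNA loading, the highest at 0.24. The cap-binding factor gene Eif4e was at -0.27 and Eif5a at -0.26.

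Genes for building ribosomes had lower values than the genes of the ribosome's own proteins. In the ribosome biogenesis list 33 of 33 measured genes were lower in Hopx-/- cells by their gene values, 21 of them by at least 0.32. The median was -0.42. Over all genes 47.4% were lower, and 6.61% by at least 0.32. Wdr12, Bop1, Ebna1bp2, Heatr1 and Nmd3 had probe sets on both sides of 0, in Ebna1bp2 from -0.71 to 0.46. Without probe sets of suffix _x_at or _s_at Nmd3 was at 0.0093, so the count of 33 depends on the setting. Rrp12, an export and maturation factor of pre-ribosomes, was 1.94-fold lower, and Nop2, an rRNA methyltransferase gene, 1.70-fold lower. The snoRNP genes Nop56 and Fbl were at -0.61 and -0.42, Ncl (nucleolin) at -0.36 and Polr1a, the largest subunit of RNA polymerase I, at -0.29. Nmd3, the export adaptor of the large subunit, was highest in that list at -0.041. Mitochondrial ribosomal protein genes, whose products translate the mitochondrial genome, were lower in 69 of 76 cases, 19 of them by at least 0.32, with a median of -0.22, from Mrps28 (-0.75) to Mrpl33 (0.13). No gene of either list was higher by 0.32. The differences between these lists were not tested, since each genotype has 1 array.

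**Figure D4:**
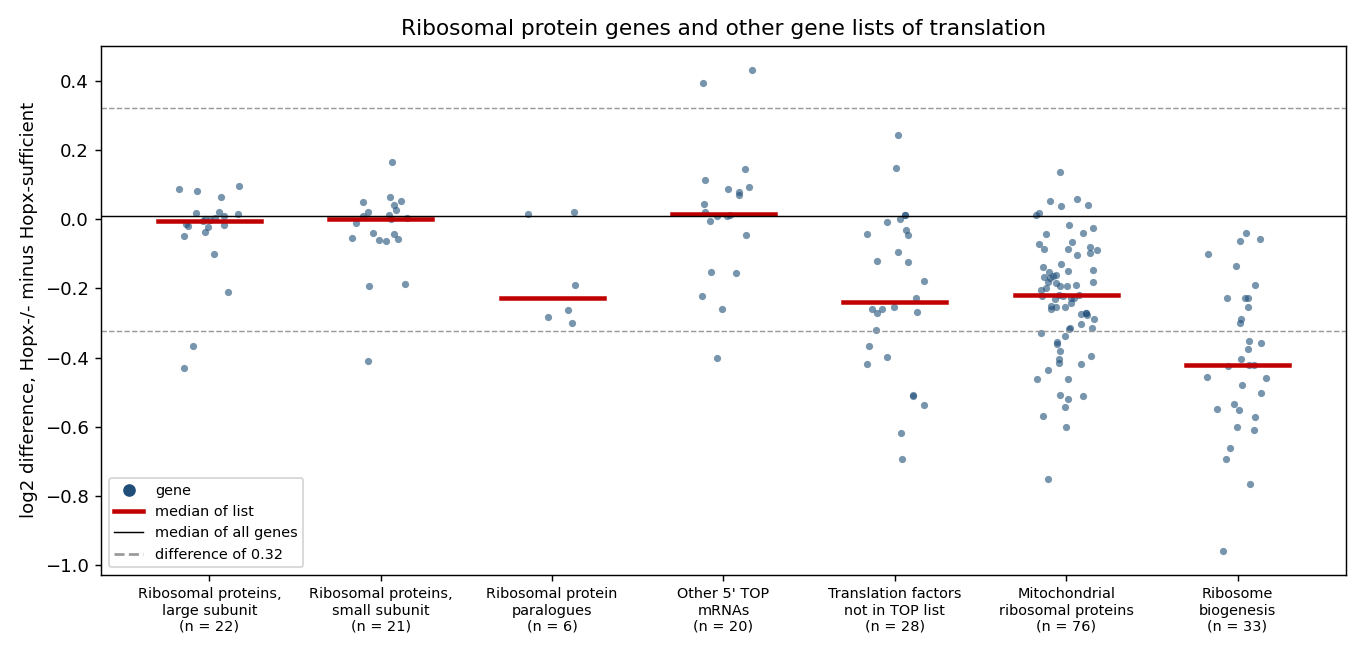
Log2 difference (Hopx-/- minus Hopx-sufficient, vertical axis) of each gene in 7 lists, with red bars for list medians, a black line for the median of all genes and dashed lines at a difference of 0.32. The subunit lists, here without paralogues, and the TOP list have medians between -0.0049 and 0.016, and the ribosome biogenesis list has the lowest median, -0.42.

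Several facts of the arrays stand beside these values. The 18 hybridisation spike-in probe sets, made from bacterial and phage RNA, had a median of -0.12 and lay between -0.21 and 0.015. Since levels were not kept, the labelled cell type could not be checked by the level of its markers. Markers of T cells and regulatory T cells were higher in 6 of 8 cases with a median of 0.26, where Foxp3 was at 0.28 and Il2ra, which encodes CD25, at -0.049. Tissue macrophage markers were higher in 11 of 16 cases (10 by at least 0.32, as were 4.36% of all genes), with Cd5l highest at 0.55 and Lyz2 lowest at -0.38. B cell markers were lower in 9 of 9 cases (3 by at least 0.32, as were 6.61% of all genes), from Fcmr at -0.47 to Blk at -0.0047. CD8 T and NK cell markers went both ways, from Gzma at -1.22 to Nkg7 at 0.44. The part of these in the values of the translation genes was not tested. In a bulk sort, fewer cells of a type and less RNA per cell cannot be told apart.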

How the data were processed

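Total RNA of 1 Hopx-/- and 1 Hopx-sufficient sample of sorted mouse T cells was isolated with Trizol, cleaned with QIAGEN reagents and hybridised to Affymetrix arrays, per the labels' protocols. The authors deposited values on a log scale of unstated base, read here as log2, for 45101 probe sets, centred per probe set on the mean of both arrays. This was checked on the table, where no row sums to more than 1e-06 and values run from -2.71 to 2.71. The summarisation and the normalization are not given in the sources used here. Depth has no meaning for arrays, and their number limits the precision.

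Gene symbols came from the array platform's annotation (2016): 34945 had 1 symbol, 932 several and 9160 none, and 64 control probe sets were left out. All 49 member symbols matched RefSeq (GRCm38.p6) by gene ID, and 43 had a promoter sequence. The gene value was the mean over probe sets of the column difference, not centred. The genes named are the 6 highest and 6 lowest of each subunit, the 6 with the widest range over probe sets, the stalk, 5S, ubiquitin-fused and paralogue genes, the ends of each other list, Hopx, Foxp3 and Il2ra. Others were named after their values were seen. The members, the 15 gene lists and the folds were chosen with earlier results of these data known. Alternatives were centring, other probe set rules, removal of probe sets by suffix, natural logs, removal of paralogues and other folds. Python 3.11.15, numpy 2.4.6, pandas 2.3.3 and matplotlib 3.10.9 were used.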

Additional observations from a re-analysis of the deposited data

How the results depend on the processing

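No paired analysis was possible because there is a single array on either side, which also leaves no array to omit. Of 52 recomputed medians 50 moved by less than the spread between probe sets of a member (SD 0.14), and 2 moved by more. That spread is one of single probe sets and is wide for a median over a whole list, so this count says little. The median over the ribosomal protein genes ranged from -0.029 to 0.0015, that of the large subunit from -0.021 to -0.0049 and that of the small subunit from -0.051 to 0.013, so the side of 0 on which the family and the small subunit lie depends on the setting. The number of members at least 0.32 apart was 3, but 10 (20.4%) when the probe set furthest from 0 stood for each gene, where 22.2% of all genes passed. It was 6 of 44 left (13.6%) without probe sets of suffix _x_at or _s_at, against 11.2% of all genes, and 6 (12.2%) under natural logs, against 23.3%. At 1.5-fold it was 0, and 2 under natural logs, and at 2-fold 0. The median of the ribosome biogenesis list was -0.61 under natural logs and otherwise between -0.53 and -0.41. That of the translation factors was -0.26 with the furthest probe set, and that of the mitochondrial ribosomal protein genes ranged from -0.33 to -0.20. The removal of probe sets with finer value steps, and 1.5-fold under natural logs, were added after the data were seen. Of 342 recomputed values of single genes 35 moved by more than that spread, and none past 0.32 changed sign. For the other shifts, the cause was not tested.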
